A study of Mus musculus with 6 samples.

Results

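Chromatin bound by mSin3A was mapped by ChIP-seq (immunoprecipitation of fixed, sonicated chromatin followed by sequencing) in splenic CD8 T cells under 2 settings that the labels call condition 1 and condition 2. The 4 ChIP libraries compared here are 1 wild-type (WT) and 1 deficient library in condition 1, and 1 WT and 1 deficient library in condition 2, out of 6 samples in the series. Deficient cells are labelled Tcf1-/-Lef1-/- and came from mice in which both factors were deleted by CD4-Cre, a recombinase under Cd4 control that acts in developing T cells. All cells were sorted as CD8+ with high TCRbeta, and nothing in the labels says how the conditions differ, how many mice were used or how old they were. Neither the inputs nor any expression data were used here, so the sorted cell type was not checked against its markers. The comparison follows the condition in the sample titles and uses no measured value.

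mSin3A is the scaffold of a co-repressor complex that carries the histone deacetylases Hdac1 and Hdac2, and it has no sequence-specific DNA binding of its own. It reaches chromatin through transcription factors and other adaptor proteins, and it is found at active as well as repressed genes. Tcf1 and Lef1 are HMG-box factors that bind DNA directly, guide T cell development and keep mature CD8 T cells from expressing genes of the helper lineage.

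Each library is represented by its list of islands, the stretches called as enriched, which start on multiples of 200 bp, with the number of reads in each. The 2 lists of condition 1 held 13397 (WT) and 15954 (deficient) islands with 1857866 and 1901826 reads. The 2 lists of condition 2 held 11151 and 13556 islands with 1792952 and 1917097 reads. Reads inside islands were thus within a few percent of each other in the 2 conditions, at a ratio of condition 2 to condition 1 of 0.965 in WT and 1.01 in deficient cells. There is 1 library for each genotype and condition, so a difference between 2 lists has no replicate check, and intervals below cover counting error only. Positions are on mouse build mm9 and are not tied to genes.

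In condition 1 the mSin3A signal was called as more and narrower islands, and in condition 2 as fewer and wider ones, in both genotypes. Condition 2 had 0.832 times as many islands in WT cells (exact 95% interval 0.812 to 0.854) and 0.850 times in deficient cells (0.830 to 0.869). Condition 2 had fewer islands in every width class below 5 kb, and the ratio was lowest among the narrowest. Those under 2 kb numbered 2445 in condition 1 and 1380 in condition 2 in WT cells, and 3735 and 2030 in deficient cells, which are ratios of 0.564 and 0.544. Their share of the list was 18.3% (Wilson 95% interval 17.6 to 18.9) against 12.4% (11.8 to 13.0) in WT, and 23.4% (22.8 to 24.1) against 15.0% (14.4 to 15.6) in deficient cells. Broad islands went the other way, since those of at least 10 kb numbered 1086 and 1184 in WT and 741 and 1001 in deficient cells.

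**Figure D1:**
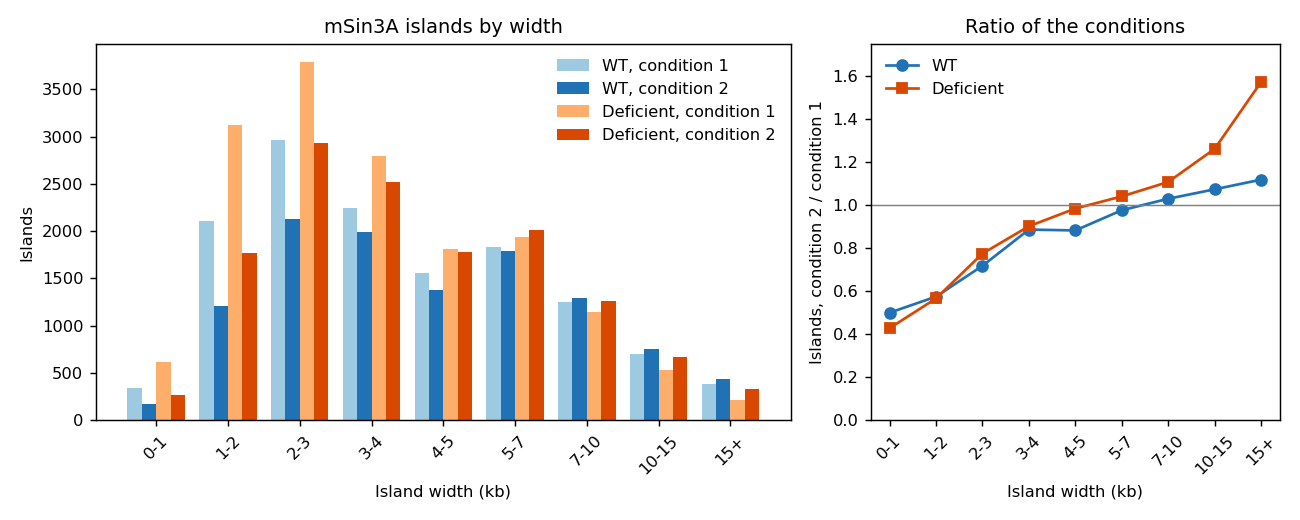
Left, number of mSin3A islands in each width class (kb) for the 4 libraries. Right, the number in condition 2 divided by that in condition 1 for each genotype. The ratio was 0.50 in WT and 0.428 in deficient cells below 1 kb and 1.12 and 1.57 from 15 kb upwards, and it passed 1 between 5 and 10 kb.

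Each quartile of width was higher in condition 2. The part of the fewer narrow islands in this was not tested. In WT cells the lower quartile, median and upper quartile of width were 2399, 3599 and 5799 bp in condition 1 and 2799, 4199 and 6599 bp in condition 2. In deficient cells they were 2199, 3199 and 4999 bp and then 2599, 3799 and 5799 bp. The median of condition 2 was 1.17 times that of condition 1 in WT and 1.19 times in deficient cells. Covered length did not follow this, with a ratio of condition 2 to condition 1 of 0.943 in WT and 1.00 in deficient cells. Reads per island moved with width. Their median was 106 in WT condition 1 and 127 in WT condition 2, and 94 and 112 in the deficient lists, a factor of 1.20 and 1.19.

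Narrow islands of condition 2 also held more reads than equally narrow islands of condition 1. At a width of 1199 bp the WT median was 37 reads in condition 1 and 45 in condition 2, and the deficient median 36 and 46. The lowest read number among islands of that width was 24 in both condition 1 lists, against 31 and 30 in condition 2, but at 1799 bp it was 29 in both condition 1 lists against 29 and 31. At 2199 bp the medians were 55 and 59 reads in condition 1 and 66 in both condition 2 lists. At 3999 bp the WT medians were 107 and 118 reads and the deficient medians 108 and 107. At 4999 bp the medians were 135 and 131 reads in condition 1 and 137 and 136.5 in condition 2. The part of sequencing depth or of the calling in this was not tested, since total depth is not stated in the sources at hand.

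The smaller number of islands in condition 2 was found on each of the 20 chromosomes in both genotypes. The ratio ran from 0.752 (chromosome 15) to 0.890 (chromosome 6) in WT and from 0.764 (chromosome X) to 0.899 (chromosome 12) in deficient cells, and the exact 95% interval lay under 1 on 17 chromosomes in each genotype. Covered length was more mixed, being lower in condition 2 on 17 chromosomes in WT and on 12 in deficient cells.

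Islands with many reads were found in both conditions, and islands with few reads mostly in one. Among the 10% of each list with the fewest reads, 16.5% of WT condition 1 islands (Wilson 95% interval 14.6 to 18.6) and 24.6% of deficient condition 1 islands (22.5 to 26.7) shared at least 1 bp with an island of condition 2 in the same genotype. From condition 2 to condition 1 these shares were 22.4% (20.1 to 24.9) and 37.4% (34.9 to 40.0). Among the 10% with the most reads the shares were 89.7% (88.0 to 91.2) and 97.1% (96.1 to 97.8) for condition 1, and 97.6% (96.5 to 98.3) and 99.1% (98.5 to 99.5) for condition 2. The condition 1 list is the longer one in both genotypes, and the part of list length in these shares was not tested. Width separated the lists less than reads did. Of the narrowest 10% of condition 1 islands, 41.9% (WT) and 50.2% (deficient) were met by an island of condition 2. Of the narrowest 10% of condition 2 islands, 50.8% and 69.8% were met by an island of condition 1.

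**Figure D2:**
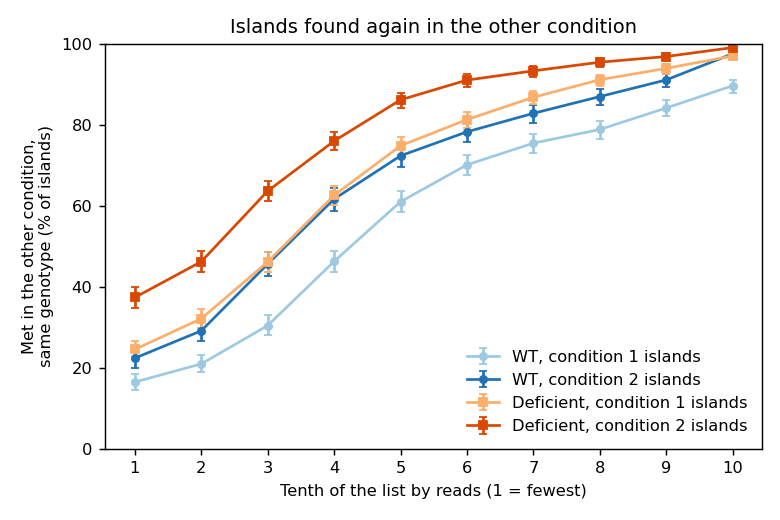
Percentage of islands overlapped by an island of the other condition in the same genotype, for 10 equal classes of the list ranked by reads. Error bars are Wilson 95% intervals. The shares rise from 16.5 to 37.4% in the lowest class to 89.7 to 99.1% in the highest.

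The islands of the 4 lists were joined wherever they shared a base or touched, which gave 23510 regions. Of these, 440 were called in both condition 1 libraries and in neither library of condition 2, which is 1.87% of all regions. Another 176 regions, 0.749%, were called in both condition 2 libraries and in neither of condition 1. The ratio of the 2 numbers was 2.50 (exact 95% interval 2.09 to 2.995). It moved with list length: when each list was held to the number of islands of the shortest, taking those with the most reads, the numbers were 245 and 198. Most regions called throughout one condition were called in the other too. Of 7605 regions called in both condition 1 libraries, 74.1% were called in all 4 and 5.79% in neither library of condition 2. Of 6860 regions called in both condition 2 libraries, 82.2% were called in all 4 and 2.57% in neither of condition 1.

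Condition-specific regions were weak in both sets beside the whole lists. The condition 1-only regions had a median of 80.5 reads over 3399 bp in WT and 64 reads over 2799 bp in deficient cells. The condition 2-only regions had 84 reads over 3599 bp and 65 reads over 2999 bp. Their median density was 22.9 to 23.1 reads per kb in the 4 libraries, below the medians of the whole lists, which were 26.5 and 27.2 reads per kb in condition 1 and 28.2 and 28.1 in condition 2. Only 31.4% (WT) and 26.8% (deficient) of condition 1-only regions, and 23.3% and 18.8% of condition 2-only regions, held more reads than the median island of their list. Low read numbers were not particular to these sets. Regions called only in WT condition 1 and deficient condition 2 had medians of 79 and 71 reads. Those called only in deficient condition 1 and WT condition 2 had medians of 60 and 81. Regions called in a single library had medians of 48 to 59 reads. The distance from condition-specific regions to islands of the other condition was also measured. It was not computed for other regions, so closeness cannot be called a trait of these sets. The nearest such island was within 10 kb for 193 condition 1-only regions (43.9%) and 79 condition 2-only regions (44.9%), and within 2 kb for 53 and 23. On all 20 chromosomes the condition 1-only set was the larger. Its share of a chromosome's regions ran from 1.22% on chromosome 18 to 3.53% on chromosome X, where 15 regions were condition 1-only and 2 condition 2-only.

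The strongest condition 1-only region was chr11:103218401-103238599, with 494 reads over 20199 bp in WT and 404 reads over 16198 bp in deficient cells. It was followed by chr1:156901801-156919599 with 311 and 258 reads and by chr12:113909801-113920199 with 276 and 226 reads. On chromosome 9, chr9:114673401-114693599 held 252 reads in WT and 360 in deficient cells. These 4 regions were broad, yet their densities of 18.0 to 26.5 reads per kb were close to or under the list medians. The next were chr17:87691401-87704999 (268 and 207 reads), chr11:113047201-113063999 (240 and 283 reads) and chr10:75018001-75031199 (298 and 196 reads). The remaining named regions were chr7:149641001-149653399 (226 and 235 reads), chr15:74547401-74556599 (216 and 230 reads) and chr4:134287401-134295199 (214 and 195 reads). The densest of the 10 was the chromosome 15 region, at 31.8 and 31.1 reads per kb. When islands within 2 kb were joined, 4 of the 10 lost the call, namely those on chromosomes 1, 9, 15 and 17.

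Condition 2-only regions were led by chr11:100915201-100929799, with 299 reads in WT and 340 in deficient cells. Chromosome 8 gave 3 of the 10: chr8:97430801-97449599 held 330 and 219 reads, chr8:48023601-48033799 held 203 and 202 reads, and chr8:96905601-96913999 held 200 and 177 reads. Chromosome 5 gave another pair, chr5:77565201-77579599 with 280 and 159 reads and chr5:115370201-115375399 with 150 and 161 reads. The latter was the densest of the set, at 39.5 and 36.6 reads per kb. Chromosome 7 gave chr7:135515001-135521399 (160 and 161 reads) and chr7:19984801-19993199 (181 and 132 reads). The other two were chr17:29180401-29188399 (181 and 184 reads) and chr19:6941401-6949599 (158 and 146 reads). Joining within 2 kb ended the call for 3 of them, those starting at 96905601, 77565201 and 135515001. A library without an island has no read number in the deposited list, so no fold can be given for any of these 20 regions.

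A call made in only one condition in one genotype was seldom made in the same condition alone in the other genotype. WT cells had 5451 regions called in condition 1 and not in condition 2 (23.2% of all regions) and 3522 with the reverse call (15.0%). Deficient cells had 4602 (19.6%) and 2702 (11.5%). Of the 5451 WT regions, 8.07% (Wilson 95% interval 7.38 to 8.83) had the same call in deficient cells, 4.53% (4.01 to 5.12) had the opposite call, 21.1% were called there in both conditions and 66.3% in neither. Of the 3522 WT regions called in condition 2 alone, 4.997% (4.33 to 5.77) were called in condition 2 alone in deficient cells, whereas 9.57% (8.64 to 10.6) were called there in condition 1 alone. The opposite call was thus the more frequent one for this set. Over all regions, too, condition 1 alone was the more frequent call, at 19.6% against 11.5% in deficient cells and 23.2% against 15.0% in WT. The part of list length in this order was not tested. Of the 2702 regions that deficient cells had in condition 2 alone, 6.51% (5.64 to 7.51) had that call in WT and 9.14% (8.11 to 10.3) the opposite one.

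**Figure D3:**
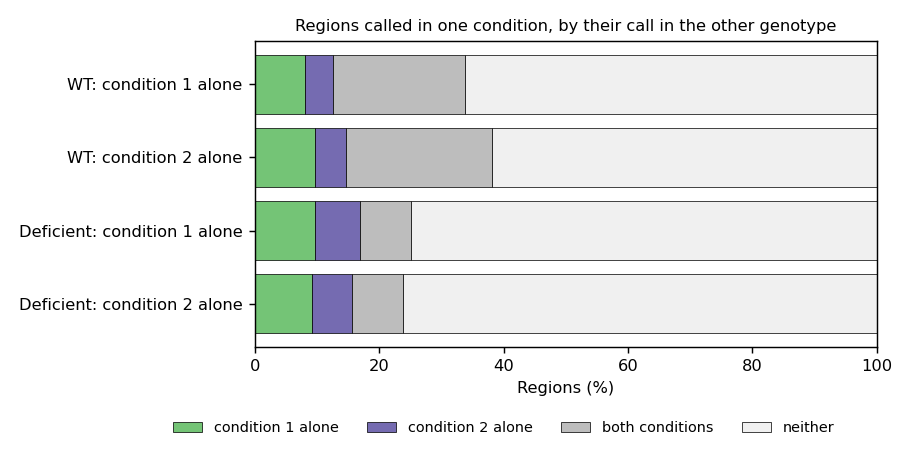
Regions called in a single condition in one genotype (rows), divided by their call in the other genotype (% of the regions in the row). The row for WT condition 1 alone holds 5451 regions, of which 66.3% were called in neither deficient library, and in each row both one-condition parts, green and purple, are under 10% of the regions.

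In all, 1200 regions were called in exactly 1 condition in each genotype. The condition was the same in 616 of them, 51.3% (Wilson 95% interval 48.5 to 54.2), and opposite in 584. Regions missing from 1 library only divided more by genotype than by condition: 1149 were missing from WT condition 2 and 829 from WT condition 1, against 379 from deficient condition 2 and 218 from deficient condition 1. In each genotype the condition 2 library was the one with more such gaps.

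Within the 5637 regions called in all 4 libraries, condition 2 islands were slightly longer and less often broken up. Median called length per region was 4799 bp in condition 1 and 5199 bp in condition 2 in WT, and 4399 and 4799 bp in deficient cells. The median ratio within a region was 1.07 in both genotypes. Condition 2 was longer in 54.6% of regions in WT and 54.5% in deficient cells, and shorter in 40.7% and 40.6%. The regions held 6574 islands in WT condition 1 and 6309 in WT condition 2, and 7056 and 6639 in deficient cells. More islands in condition 1 were seen in 484 regions in WT and 626 in deficient cells, and more in condition 2 in 258 and 293. Of 313 regions in which the number changed in both genotypes, 141 had more islands in condition 1 in both and 38 had more in condition 2 in both. The other regions differed in direction, 61 with more islands in condition 1 in WT and in condition 2 in deficient cells, and 73 the other way round.

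Counted separately, starts and ends both lay further out in condition 2 more often than further in. Whether both moved out in the same region was not counted. In 4079 regions with a single island in each library, the start lay further out in condition 2 in 47.0% of WT and 46.7% of deficient comparisons and further in in 36.4% and 36.9%. The end lay further out in 47.7% and 46.3% and further in in 36.7% and 37.6%. Island edges moved by a median of 800 bp in WT and 600 bp in deficient cells at either end. Centres moved by a median of 600 bp in both genotypes.

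In these shared regions reads were on the whole slightly more numerous in condition 2, and reads per kb were level. The median region had 1.08 times as many reads in condition 2 in WT and 1.05 times in the deficient pair (log2 0.11 and 0.08). Reads were more numerous in condition 2 in 62.4% and 58.8% of regions. Per kb of called length the ratios were 1.01 and 0.996. The log2 ratio of reads followed that of called length across regions (Pearson r = 0.90 in WT and 0.89 in deficient cells; regions of 1 pair of libraries, not independent replicates). After centring on the median, log2 ratios of single regions had an SD of 0.51 in WT and 0.44 in deficient cells.

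The region-by-region difference between the conditions did not recur from one genotype to the other. Across the 5637 regions the WT and deficient log2 ratios, which have no library in common, had a Pearson r of -0.0064 and a Spearman rho of -0.013, and 49.1% of regions had the same sign in both. For called length r was -0.019, and for reads per kb it was -0.032. At least 2-fold more reads in condition 2 were found in 174 regions in WT (3.09%) and 117 in deficient cells (2.08%), and at least 2-fold fewer in 146 (2.59%) and 102 (1.81%). With list totals as the scale and no centring, the numbers were 275 more and 103 fewer in WT and 142 and 78 in deficient cells. Past 2-fold in both genotypes after centring, 14 regions went up in condition 2, 8 went down, and 19 moved in opposite directions. Per kb of called length these numbers were 1, 2 and 5.

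edgeR's quasi-likelihood test of condition, with genotype as a term and Benjamini-Hochberg adjustment, called 0 of the 5637 regions (0.0%). At an unadjusted p under 0.05 it counted 315 regions, 5.59%, of which 161 were higher and 154 lower in condition 2. That split was 255 to 80 when scaled by total island reads and 45 to 295 per called length. The fit has 1 residual degree of freedom, its spread is the disagreement of the genotypes over the condition, and its biological coefficient of variation was 21.3%. DESeq2 with the same design called 2 regions higher in condition 2 and 0 lower. These p-values describe the 4 libraries, which are not stated to come from separate animals.

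**Figure D4:**
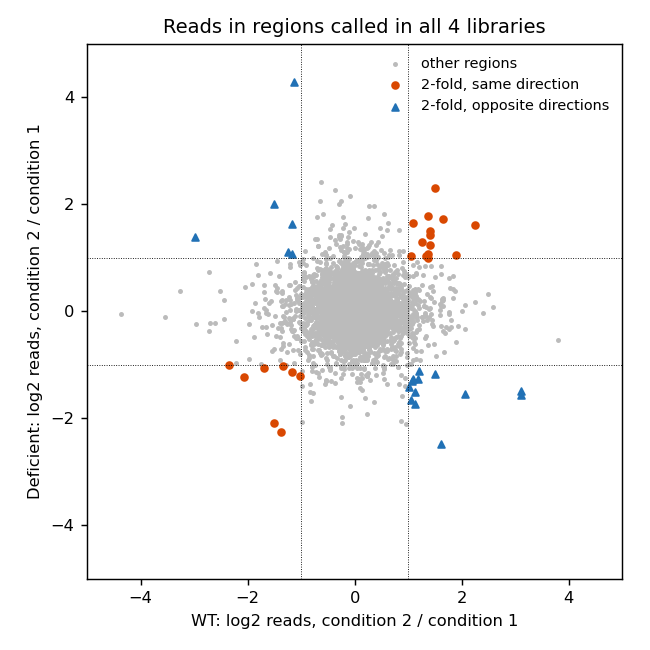
Log2 ratio of reads, condition 2 over condition 1, in WT (x axis) and deficient cells (y axis), each centred on its median, for the 5637 regions called in all 4 libraries. Dotted lines mark 2-fold. The cloud has no slope (r = -0.0064), with 14 regions past 2-fold upwards and 8 downwards in both genotypes, and 19 in opposite directions.

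The 12 regions furthest apart in both genotypes, none of them called by edgeR, were called over a long stretch in one condition and over a shorter one in the other. The first was chr17:84700001-84715399, where condition 1 gave 104 reads in WT and 70 in deficient cells, and condition 2 gave 355 and 245. After centring, reads in its called islands were 3.16-fold (exact 95% interval 2.53 to 3.97) and 3.32-fold (2.54 to 4.40) higher in condition 2. The intervals cover counting error alone in a region chosen for its ratio, and reads outside its islands are not known. These folds therefore do not measure a change over one fixed stretch. The called length of this region was 3399 and 2199 bp in condition 1 and 15199 and 10999 bp in condition 2. Its density was 30.6 and 31.8 and then 23.4 and 22.3 reads per kb. A second region of the same chromosome, chr17:85243401-85263399, went from 142 to 438 reads in WT and from 72 to 374 in deficient cells. Its length went from 7199 and 1599 bp to 18798 and 17598 bp.

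The region with the smallest p was chr5:123506801-123521999, where 54 and 100 reads stood against 279 and 325 (log2 ratio 1.92, adjusted p = 0.365 in edgeR, adjusted p = 0.0436 in DESeq2). The second chromosome 17 region had the same adjusted p-values in the 2 tools. The other 3 were chr10:92880601-92890599 (42 and 45 against 120 and 128 reads), chr11:77844201-77854399 (84 and 76 against 240 and 227 reads) and chr7:129383401-129396999 (81 and 64 against 226 and 233 reads). All 6 regions had more reads in condition 2 in both genotypes by the rule that chose them. In reads per kb condition 2 was lower in both genotypes, except for WT in the chromosome 5 region and the second chromosome 17 region. There WT went from 22.5 to 23.7 and from 19.7 to 23.3 reads per kb. The share of all regions with lower density in both genotypes was not computed.

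In the opposite direction, chr4:140457401-140464599 held 160 and 177 reads in condition 1 and 61 and 44 in condition 2, which was 2.84-fold (2.10 to 3.88) fewer in WT and 4.24-fold (3.03 to 6.04) fewer in deficient cells. Its called length went from 5799 and 6399 bp to 1599 and 1999 bp, and reads outside its islands are not known here either. For chr7:71183601-71199399 reads went from 325 to 136 in WT and from 268 to 59 in deficient cells, and called length from 14599 to 4199 bp and from 11598 to 3199 bp. For chr11:106173201-106187999 they were 243 and 225 against 63 and 101. Of these 3 regions, the chromosome 4 region had the smallest p (adjusted p = 0.365 in edgeR). The other 3 were chr9:43930401-43944799 (321 and 145 against 108 and 73 reads), chr19:4043801-4069199 (418 and 318 against 179 and 165 reads) and chr2:35301201-35312399 (219 and 98 against 105 and 47 reads). All 6 had fewer reads in condition 2 in both genotypes by the rule that chose them. In the chromosome 2 region WT condition 2 (105 reads) lay above deficient condition 1 (98 reads). The share of all regions in which the conditions do not overlap in reads was not computed for either direction, so no such count is given. The edgeR rule also named chr8:129366201-129393799, with 634 and 539 reads in condition 1 and 203 and 288 in condition 2 (edgeR adjusted p = 0.482).

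**Figure D5:**
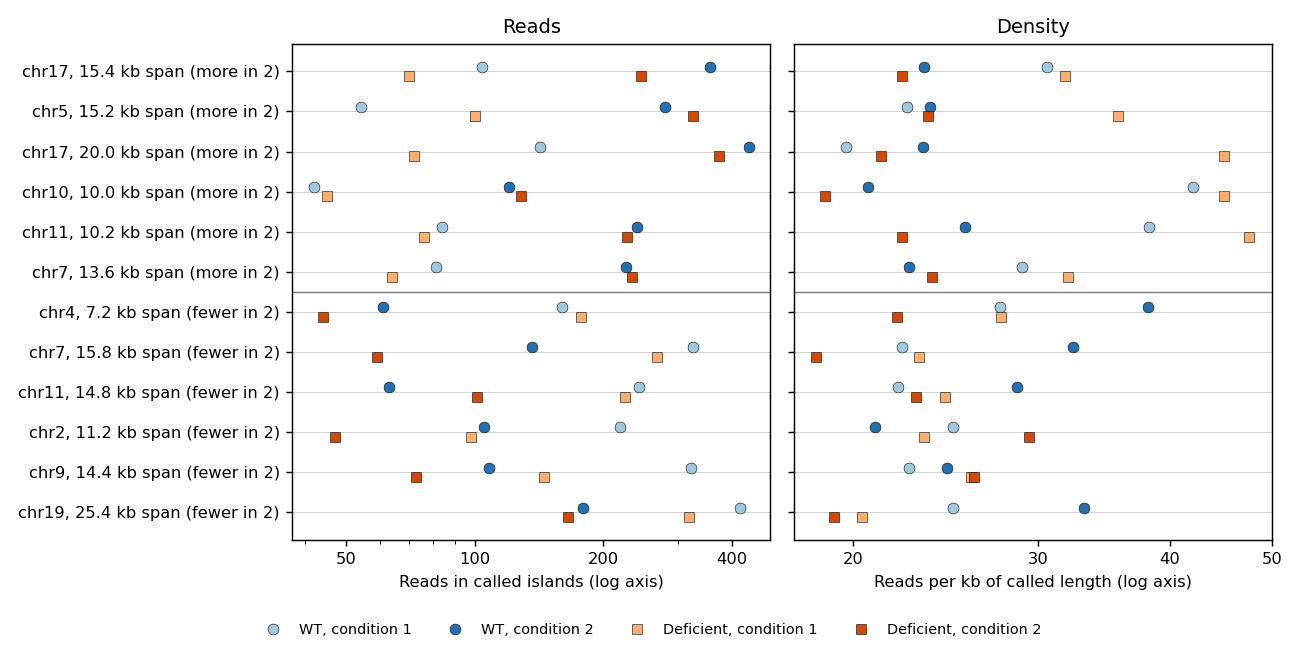
Reads (left) and reads per kb of called length (right), both on log axes, in the 4 libraries for the 6 regions furthest above (top) and the 6 furthest below (bottom) condition 1 in condition 2 in both genotypes, labelled by chromosome and span. The regions were chosen for their read ratios, so the distance between conditions on the left is set by that choice. Densities lie between 18.4 and 47.5 reads per kb.

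The largest differences in a single genotype had no counterpart of the same direction and size in the other, and were picked after their values were seen. In WT the lowest ratio was in chr4:134618001-134646999, from 709 reads over 23599 bp to 37 reads over 1399 bp, where deficient cells had 627 and 637 reads. In deficient cells the highest ratio was in chr4:133590801-133625399, from 28 reads over 799 bp to 575 reads over 24396 bp, where WT went from 550 to 271 reads. Both lie on 1 chromosome, and both are stretches of over 20 kb in which 1 library kept a single short island.

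Regions were also ranked by the ratio of reads per kb. In chr16:56025801-56033399 the condition 1 islands had 28.5 (WT) and 34.5 (deficient) reads per kb over 7199 and 4399 bp, and the condition 2 islands 67.3 and 73.2 reads per kb over 1799 and 1599 bp. Reads were fewer in condition 2, 121 and 117 against 205 and 152. The same held for chr9:65732201-65734999, at 42.9 and 42.5 against 98.9 and 83.9 reads per kb, and for chr7:34949801-34956399, at 22.1 and 24.8 against 47.8 and 47.9. The next were chr15:51707601-51711999, chr3:102861601-102864999 and chrX:148448801-148454999, at 36.4 to 68.4 reads per kb in condition 2. All 6 were shorter and held fewer reads in condition 2 in both genotypes.

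The reverse was seen in chr7:54261801-54267999, where density went from 82.3 and 73.5 to 38.4 and 30.2 reads per kb and called length from 1799 and 1999 bp to 4399 and 5799 bp. Its reads were 148 and 147 against 169 and 175. In chr6:142291401-142298599 density went from 73.5 and 67.3 to 34.2 and 33.7 reads per kb. This group also held chr15:58760601-58770599, chr14:54863001-54874999, chr4:132191401-132196599 and the chromosome 10 region named above, at 18.8 to 27.5 reads per kb in condition 2. Each of the 6 was longer and held more reads in condition 2 in both genotypes.

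The island with the most reads in any list was in WT condition 1. It lay in chr11:3018201-3104999, held 23922 reads over 85799 bp, or 279 reads per kb, and made up 1.29% of the reads of that list. The same region was called over 1599 bp with 113 reads in deficient condition 1 and over 3199 bp with 126 reads in deficient condition 2, and it was not called in WT condition 2. Without it, the ratio of WT reads in condition 2 to condition 1 was 0.978 in place of 0.965. With all islands above 100 reads per kb left out of every list (21 to 35 islands a list), the island number in condition 2 was 0.833 times that of condition 1 in WT and 0.850 times in deficient cells.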

How the data were processed

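The authors deposited 1 island list for each of the 4 ChIP libraries, made with FastQC, Bowtie2 2.2.5 and SICER 1.1 on mm9, per the submitters' processing notes. SICER's settings and any use of the inputs are not given there. Each deposited list gives a chromosome, a start, an end and a whole number, taken as an unscaled count of reads per island. Starts in the text are 1 above the deposited ones, and widths are deposited end minus start.

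Overlapping or touching islands of the 4 lists were merged into regions. Reads and lengths were summed over a library's islands in a region. Log2 ratios were centred on the median of regions called in all 4 libraries. Those regions were tested with edgeR 4.0.16 (TMM, genotype as a term, threshold 0.05). A check of this fit on simulated data required only correct fold estimates, with no requirement on the share of changes called. DESeq2 1.42.0 was an alternative. Ratios of counts have exact (Clopper-Pearson) and shares Wilson 95% intervals, for counting error only.

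Named regions were the 10 condition-only regions of each kind with the best read rank (the worse of 2 libraries), the 6 in each direction with the largest ratio of reads, and of reads per kb, in the genotype where it was smaller, and the 5 in each direction with the smallest p in edgeR. The island with the most reads, the largest single-genotype differences and the regions moving in opposite directions were chosen after their values were seen. Members and rules were chosen with earlier results of these data known. The annotation given is on GRCm38, so no gene was assigned, the gene lists were not evaluated, and no sequence is shown. Python 3.11.15 and R 4.3.3 were used.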

Additional observations from a re-analysis of the deposited data

Results flagged for a closer look

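In 584 of the 23510 regions WT and deficient cells were called in opposite conditions, beside 616 called in the same single condition. Of the 584, 247 (1.05% of all regions) were called in condition 1 in WT and condition 2 in deficient cells. The other 337 (1.43%) were called the other way round. In 19 of the 5637 regions called in all 4 libraries the reads differed at least 2-fold between the conditions, in opposite directions in the genotypes. Beside these, 14 were higher and 8 lower in condition 2 in both genotypes. Both sets were noted because the difference between the conditions, with 1 library on each side, went in opposite directions in the genotypes. That contrast was not tested for any of these regions.

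The clearest of these 19 were chosen after their values were seen. On chromosome 9, chr9:66118801-66132799 went from 104 to 344 reads in WT and from 221 to 42 in deficient cells. On chromosome 13, chr13:13608201-13627799 went from 44 to 410 reads in WT and from 383 to 137 in deficient cells. In the other direction, chr11:49789801-49801399 went from 228 to 31 reads in WT and from 60 to 165 in deficient cells, and chr13:23616001-23621199 from 100 to 38 and from 23 to 98. Called length moved with the reads in all 4, for example from 1199 to 16198 bp in WT and from 19199 to 6199 bp in deficient cells in the first chromosome 13 region.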

How the results depend on the processing

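Each genotype and condition is 1 library, so replicate numbers pair no samples; the condition was compared within genotype through the genotype term. Without that term edgeR counted 211 regions at an unadjusted p under 0.05 in place of 315, and called 0 in both fits. With lists of equal length, condition 1-only regions numbered 245 and deficient regions with more islands in condition 1 numbered 417. The upper 50% of each list by reads gave 95 condition 2-only regions (beside 350 condition 1-only) and a ratio of deficient median widths of 1.16. Joining within 2 kb gave 1.12 for that ratio and 431 WT regions with more islands in condition 2. Scaling by total island reads gave 5 regions 2-fold lower in both genotypes, and 52.2% of regions with the same sign. Requiring 50 reads in every library left 5 regions lower and 11 opposite. Per kb of called length, 1 region was 2-fold higher, 2 lower and 5 opposite; with called length within 1.5-fold in all 4 libraries (1233 regions, added after the data were seen) all 3 numbers were 0. DESeq2 called 2 regions higher, where edgeR called 0 under 7 settings, which with 1 residual degree of freedom says nothing about stability. Causes of these differences were not tested, beyond the fewer islands or regions that some settings leave.

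Per kb, the 12 regions named for reads reversed in at least 1 genotype. The values that follow are log2 ratios in the genotype that went furthest against the reads. Among regions with more reads in condition 2 they were -0.51 and -1.08 for the chromosome 17 regions and -0.60 for chromosome 5. They were -1.25 for chromosome 10, -1.09 for chromosome 11 and -0.42 for chromosome 7. Among those with fewer they were 0.45 for chromosome 4, 0.53 for chromosome 7, 0.36 for chromosome 11, 0.34 for chromosome 2, 0.10 for chromosome 9 and 0.40 for chromosome 19. The other genotype kept the direction of the reads in several regions. In WT these were chromosome 5 (0.06), the second chromosome 17 region (0.23) and chromosome 2 (-0.26). In deficient cells they were chromosomes 4 (-0.32), 7 (-0.32), 11 (-0.09) and 19 (-0.08), all with fewer reads in condition 2. Read numbers of narrow islands, 16 to 23 at the lowest, limit what can be said of single weak calls.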
